A study of Mus musculus with 2 samples.

Results

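Tcf1 ChIP-seq peaks were examined at 8 mouse genes that encode transcription factors of CD8+ T cell fate: Prdm1, Tbx21, Zeb2 and Bhlhe40, grouped as effector-promoting, and Eomes, Zeb1, Bcl6 and Bach2, grouped as memory-promoting. A peak was a member when its summit lay in the annotated gene body or within 50 kb of either end. By this rule 49 of the 22286 deposited peaks were members, and 44 of them were among the 19042 high-confidence peaks, which pass the study's limits of 4 on fold enrichment, 1e-05 on p and 0.05 on q. The other 5 fell under the fold minimum. Bhlhe40 and Eomes have known roles on both sides, so their place in the contrast is a convention.

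The peak list came from 1 WT library and 1 Tcf1-deficient library of naïve CD8+ T cells, sorted from mouse spleen as GFP+ TCRbeta+ CD62Lhi CD44lo-med cells and immunoprecipitated with a rabbit antiserum raised against full-length Tcf1. Both groups carried hCD2-Cre, which is active mainly in mature T cells, and a Rosa26-lsl-GFP allele that marks cells in which Cre has acted, according to the series' design, on a C57BL/6 background in young adult mice. The sources disagree on the control: the title says Tcf1-deficient, the genotype field says Tcf1-/-Lef1-/-, the design text says Tcf1/Lef1 double floxed, and the study's methods describe Cd4-Cre Tcf7 fl/fl cells, in which Cre acts earlier, in the thymus, and Lef1 is intact. What it shares in all of them is the loss of Tcf1, which is encoded by Tcf7. Excision by hCD2-Cre is incomplete, and how many mice stood behind each library is not given in the sources used here. After removal of duplicates the WT library held 36938606 fragments and the Tcf1-deficient library 27625250. With 1 library per group, no value below has a replicate check, and every interval covers counting error only. A peak list holds no expression values, so the cell type could not be checked against its marker genes.

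Tcf1 is an HMG-box DNA-binding protein that, with its relative Lef1, recognizes the Tcf/Lef core and is abundant in naïve and memory CD8+ T cells. After infection, naïve cells give rise to short-lived effector cells and to long-lived memory cells, and opposing transcription factors steer the choice. Blimp1, encoded by Prdm1, T-bet, encoded by Tbx21, and Zeb2 drive terminal effector differentiation, whereas Bcl6, Bach2, Zeb1 and Eomes favor memory cells or their precursors. Bcl6 and Blimp1 repress each other, and Bach2 restrains effector genes.

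The sequences at the summits that carry the results are given first, because they show what the antiserum-enriched DNA looked like at each gene. Each window holds 201 bases centered on the summit, written 5′ to 3′ on the plus strand of the mouse reference genome mm9. Capitals mark the exact Tcf/Lef core ATCAAAG, its relatives TTCAAAG or AACAAAG, and the Runx core TGTGGTT. On the opposite strand ATCAAAG reads as CTTTGAT, while TTCAAAG reads as CTTTGAA and the Runx core as AACCACA. The windows are those of the strongest peak of each gene, of its strongest peak with ATCAAAG where that is another one, and of the Prdm1 peak upstream of the start site. The last window lies outside the Eomes limits and was chosen after its values were seen. No sequence is given for Zeb1, nor for the strongest Bcl6 peak, whose summit lies in an untranslated exon.
Prdm1 intron, strongest, chr10:44168066-44168266: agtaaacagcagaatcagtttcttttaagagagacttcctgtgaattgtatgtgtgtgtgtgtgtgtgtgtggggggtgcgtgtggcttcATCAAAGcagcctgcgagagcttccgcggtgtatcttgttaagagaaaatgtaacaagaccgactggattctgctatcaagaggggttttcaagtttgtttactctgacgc
Prdm1 upstream, chr10:44203007-44203207: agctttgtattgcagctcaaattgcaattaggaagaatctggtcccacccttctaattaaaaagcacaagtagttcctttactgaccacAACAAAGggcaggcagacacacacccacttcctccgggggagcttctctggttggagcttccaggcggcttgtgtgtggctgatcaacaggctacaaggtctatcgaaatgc
Tbx21 upstream, strongest, chr11:97002256-97002456: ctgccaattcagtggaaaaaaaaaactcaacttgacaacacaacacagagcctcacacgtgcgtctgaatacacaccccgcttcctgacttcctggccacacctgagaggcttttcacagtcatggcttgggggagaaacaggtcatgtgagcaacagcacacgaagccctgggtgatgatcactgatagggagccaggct
Tbx21 downstream, with the core, chr11:96957576-96957776: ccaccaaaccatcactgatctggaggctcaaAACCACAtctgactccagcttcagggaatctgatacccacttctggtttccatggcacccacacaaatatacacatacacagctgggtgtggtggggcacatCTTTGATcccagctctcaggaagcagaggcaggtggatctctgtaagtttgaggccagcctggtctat
Zeb2 downstream, strongest, chr2:44816132-44816332: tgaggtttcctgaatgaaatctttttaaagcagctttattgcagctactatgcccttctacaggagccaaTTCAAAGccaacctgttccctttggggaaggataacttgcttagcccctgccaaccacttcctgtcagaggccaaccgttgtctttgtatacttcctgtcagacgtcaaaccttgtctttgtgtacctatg
Bhlhe40 intron, strongest, chr6:108611579-108611779: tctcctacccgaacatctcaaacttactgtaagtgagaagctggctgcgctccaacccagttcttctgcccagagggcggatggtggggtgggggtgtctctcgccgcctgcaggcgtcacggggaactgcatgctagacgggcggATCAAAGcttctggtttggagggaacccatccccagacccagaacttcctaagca
Bcl6 upstream, with the core, chr16:23991327-23991527: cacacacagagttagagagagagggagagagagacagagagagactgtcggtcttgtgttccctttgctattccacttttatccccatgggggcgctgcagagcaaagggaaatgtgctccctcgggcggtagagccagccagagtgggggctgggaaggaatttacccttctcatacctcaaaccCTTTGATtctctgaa
Bach2 intron, strongest, chr4:32378506-32378706: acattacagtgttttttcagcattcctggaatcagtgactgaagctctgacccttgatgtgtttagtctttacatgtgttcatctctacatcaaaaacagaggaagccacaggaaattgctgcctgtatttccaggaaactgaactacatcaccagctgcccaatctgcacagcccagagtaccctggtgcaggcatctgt
Bach2 intron, with the core, chr4:32430770-32430970: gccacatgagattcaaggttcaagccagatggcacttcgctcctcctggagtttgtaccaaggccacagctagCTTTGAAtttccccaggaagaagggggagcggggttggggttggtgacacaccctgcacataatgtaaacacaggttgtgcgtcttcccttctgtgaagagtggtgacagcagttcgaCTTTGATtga
Eomes, beyond the 50-kb limit, chr9:118299967-118300167: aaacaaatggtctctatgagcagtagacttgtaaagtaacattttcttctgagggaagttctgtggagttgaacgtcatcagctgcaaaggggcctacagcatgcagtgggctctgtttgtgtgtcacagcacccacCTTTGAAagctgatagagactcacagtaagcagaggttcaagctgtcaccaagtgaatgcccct

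The remaining exact cores are shown in 27 bases each, written 5′ to 3′ on the strand on which the core reads ATCAAAG, so that the bases around it can be compared.
Prdm1 second intron site, chr10:44163875-44163901 (plus strand): ggcaaatcacATCAAAGactcataatg
Prdm1 downstream, chr10:44149416-44149442 (plus strand): cacatgcaccATCAAAGggactttccc
Bach2 intron 1, chr4:32375089-32375115 (minus strand): ctctggaaggATCAAAGgtcgtgtttg
Bach2 intron 2, first, chr4:32421314-32421340 (plus strand): aacagtcaccATCAAAGtcactcttga
Bach2 intron 2, last, chr4:32480472-32480498 (minus strand): tgctgtgcccATCAAAGagtgaatgtg

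Tcf1 peaks were found at 7 of the 8 genes, and the only gene without a peak was Eomes. High-confidence peaks numbered 5 at Prdm1, 4 at Tbx21, 3 at Zeb2, 2 at Bhlhe40, 0 at Eomes, 3 at Zeb1, 4 at Bcl6 and 23 at Bach2. Of all 22350 protein-coding genes, 66.5% had at least 1 such peak under the same rule, with a median of 1. Of the 49 deposited peaks in the windows 44, or 89.8%, were of high confidence, beside 85.4% of all deposited peaks. The windows together spanned 1611 kb and held 2.73 peaks per 100 kb (Poisson 95% interval 1.98 to 3.67), beside 0.717 over the whole genome and a median of 0.973 over coding gene windows. Gene-centered windows were therefore compared with gene windows and not with the genome.

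**Figure D1:**
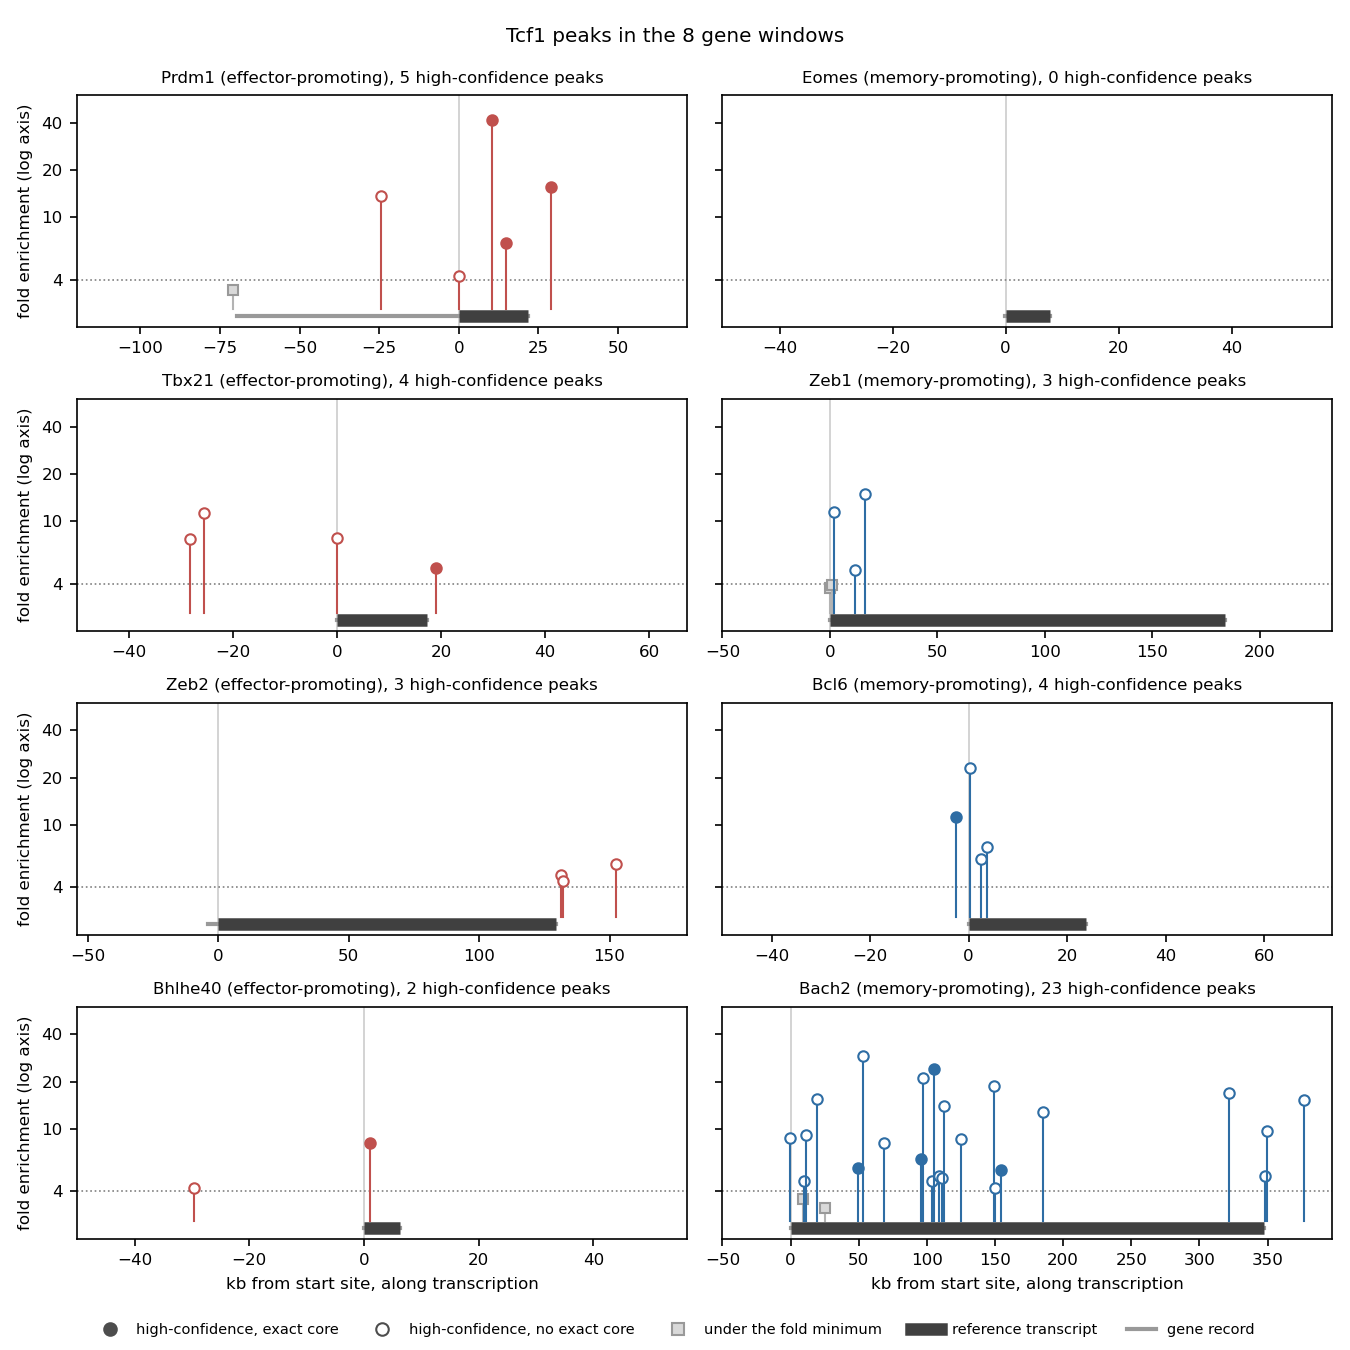
Fold enrichment (log axis) of each peak against its distance in kb from the start site along transcription, for the 8 genes (red, effector-promoting; blue, memory-promoting). Filled circles have the core ATCAAAG within 100 bp of the summit, open circles do not, and grey squares are the 5 peaks under the fold minimum of 4, drawn as a dotted line. Most of the 23 Bach2 peaks lie within 185 kb of its start, the 4 Bcl6 peaks sit around its start, and the 3 Zeb2 peaks lie past its end.

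Prdm1 (ENSMUSG00000038151.6, chr10:44156983-44248307, minus strand) encodes Blimp1, a repressor that drives effector cells toward terminal differentiation. It held the strongest peak of all 8 genes and 3 of the 4 effector-side peaks that reached 10 in fold enrichment, of which 1 lay in the coding transcript, 1 upstream and 1 downstream. The strongest, at chr10:44167821-44168573, had a WT pileup (fragments over the summit) of 401 (Poisson 95% interval 363 to 442) over a control level of 8.69, the fragments of the Tcf1-deficient library there on the caller's scale. Its fold enrichment was 41.5 (37.5 to 45.7), 2.68 times that of the next Prdm1 peak. This summit lay 10.4 kb past the start site, in intron 4 of the 8-exon coding transcript and intron 3 of the 7-exon one, and the middle base of the ATCAAAG in its window lay 7 bp from the summit. Distances of cores are given from that middle base throughout.

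The other Prdm1 peaks formed a graded series. The downstream peak at chr10:44149119-44149786, 7.5 kb past the end of the gene, had a pileup of 139 (117 to 164) over a control level of 8.02, and its fold enrichment was 15.5 (13.1 to 18.3), with a core 56 bp from the summit. The upstream peak at chr10:44202795-44203474 had a pileup of 176 (151 to 204) and the highest control level of the 44 peaks, 12, so that its fold enrichment was 13.6 (11.7 to 15.7). Ranked by pileup, the upstream peak therefore stood above the downstream one, and ranked by fold enrichment the order turned, with intervals of both measures that overlapped. Its window had no ATCAAAG but an AACAAAG 8 bp from the summit, so that both of the strongest summits inside the Prdm1 gene record lay within 8 bp of a Tcf/Lef-type core. It lies 24.6 kb from the coding start and inside intron 1 of a longer, noncoding transcript of the gene, which starts upstream.

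The remaining Prdm1 peaks were lower. A second intron peak, in intron 5 of the 8-exon transcript 14.7 kb past the start, had a pileup of 43 (31.1 to 57.9) and a fold enrichment of 6.86 (5.0 to 9.18), with a core 52 bp from the summit. At the promoter itself, 9 bp from the start site, the pileup was 26 (17.0 to 38.1) and the fold enrichment 4.21 (2.8 to 6.09), an interval that includes the minimum of 4. The Prdm1 promoter was thus the weakest of its 5 high-confidence peaks. Across coding gene windows, 98.3% had a lower strongest peak than Prdm1, with windows without a high-confidence peak counted as lower. Among the 14869 windows with such a peak, Prdm1 ranked 371 by its strongest. Fewer peaks were held by 84.1% of all coding gene windows, and 74.4% had a lower density.

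Tbx21 (ENSMUSG00000001444.2, chr11:96959385-96976645, minus strand) encodes T-bet, which directs effector genes such as those for interferon gamma. Its 4 peaks all lay outside the gene record, 1 of them at the start site. The promoter peak at chr11:96976520-96976912, 16 bp from the start, had a pileup of 49 (36.3 to 64.8) over a control level of 5.42, and its fold enrichment was 7.79 (5.80 to 10.2). The strongest, 25.7 kb upstream at chr11:97002090-97002556, had a pileup of 71 (55.5 to 89.6) and a fold enrichment of 11.2 (8.80 to 14.1), and none of the searched cores stood in its window. This peak and another 28.4 kb upstream, with a pileup of 48 and a fold enrichment of 7.63 (5.67 to 10.1), lay in the body of the neighboring gene Tbkbp1, whose start site was nearer to them than that of Tbx21. The promoter and the 28.4-kb peak did not differ beyond counting error.

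The fourth Tbx21 peak lay 19.0 kb past the start site, close to the annotated start of Gm11573. It had a pileup of 31 (21.1 to 44) and a fold enrichment of 4.99 (3.44 to 7.01). It was the only Tbx21 peak with ATCAAAG, 36 bp from the summit, and it also held the Runx core. The 17 bases around that core occur 93 times in mm9, against 1 to 3 times for the other Tcf/Lef cores in the summit windows of the 44 peaks, and how reads from repeated copies were treated is not given in the sources used here.

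Zeb2 (ENSMUSG00000026872.8, chr2:44839154-44972915, minus strand) encodes a zinc-finger repressor that acts with T-bet in terminal effector cells. It had no peak, deposited or of high confidence, in its body of 134 kb or in the 50 kb upstream. Its 3 peaks lay past the end of the gene, 131, 132 and 153 kb from the start site, with pileups of 30, 30 and 35. Their fold enrichments were 4.83 (3.31 to 6.83), 4.42 (3.03 to 6.25) and 5.61 (3.95 to 7.74), and all 3 intervals reach below 4. None had ATCAAAG. The middle one held TTCAAAG at 2 places and the last one, whose sequence is shown above, at 1. The nearest coding start was that of Gtdc1, 33.1 to 54.2 kb away.

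Bhlhe40 (ENSMUSG00000030103.5, chr6:108610623-108616919, plus strand) encodes a basic helix-loop-helix repressor that supports effector cytokines and also acts in tissue-resident memory cells. Its peak at chr6:108611548-108611955, in intron 3 and 1.06 kb past the start, had a pileup of 51 (38.0 to 67.1) and a fold enrichment of 8.10 (6.07 to 10.6), with the core 49 bp from the summit. The second, 29.7 kb upstream in the overlapping record of 0610040F04Rik, was at a fold enrichment of 4.21 (2.8 to 6.09), from a pileup of 26. Only the intronic peak kept its whole interval above the minimum.

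Eomes (ENSMUSG00000032446.8, chr9:118387330-118395250, plus strand) encodes the T-box factor related to T-bet that sustains memory cells and their response to homeostatic cytokines. No peak of any fold enrichment lay in its window of 108 kb, which allows a density of up to 3.42 per 100 kb (upper Poisson limit). Of coding gene windows, 33.5%, or 7481, had no high-confidence peak, a count that can include windows with peaks under the fold minimum. Peaks stood farther out. Upstream of Eomes, 61.7 to 87.3 kb from its start, 5 intergenic high-confidence peaks had Eomes as their nearest coding start, and 1 more lay downstream nearer to Itga9.

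The 5 upstream peaks had pileups of 129 (108 to 153), 54, 41, 75 and 49 from the farthest to the nearest. Their fold enrichments in the same order were 20.3, 8.57, 5.46, 11.8 and 7.79, so the farthest was the strongest. None held ATCAAAG, and 2 held another of the 3 Tcf/Lef cores, among them the farthest, in whose window TTCAAAG stood 40 bp from the summit. Of the 7481 coding gene windows with 0 high-confidence peaks, 1946 (26.0%) gained at least 1 when the limit was set to 100 kb. Of the same windows, 45 (0.602%) gained 6 or more, as Eomes did. The 6 peaks at Eomes are not members by the rule and enter no count below.

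**Figure D2:**
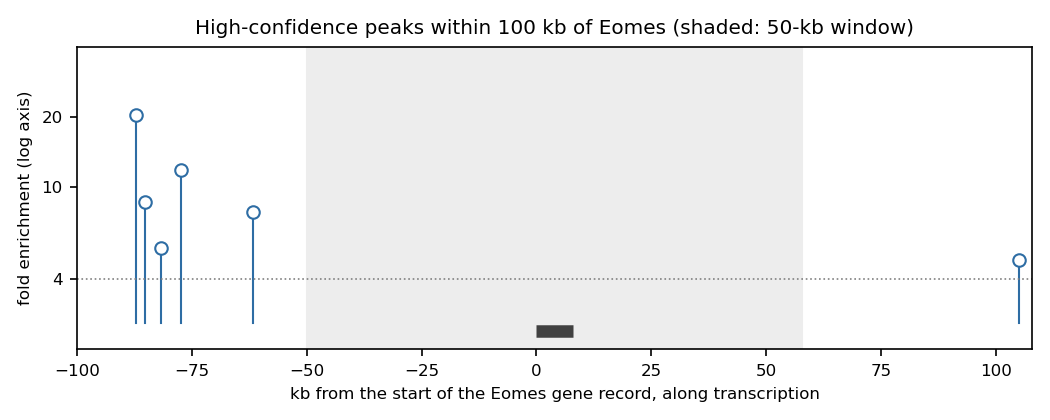
Fold enrichment (log axis) of the high-confidence peaks within 100 kb of Eomes against the distance in kb from the start of its gene record (black bar); the shaded area is the gene with 50 kb on each side. The 5 upstream peaks lie at 61.7 to 87.3 kb, all outside the shaded area, which holds 0 peaks.

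Zeb1 (ENSMUSG00000024238.5, chr18:5591858-5775465, plus strand) encodes the relative of Zeb2 that supports memory cells. All 3 of its high-confidence peaks lay in intron 1 within 16.2 kb of the start of the reference transcript, in a gene of 184 kb. The 2 nearest that start lay 281 and 33 bp from other annotated Zeb1 starts and count as promoter peaks below. The peak nearest the start, 2.02 kb past it, was 1173 bp wide and had a pileup of 73 (57.2 to 91.8) and a fold enrichment of 11.5 (9.07 to 14.5). The middle one, 11.9 kb past the start, was at 4.87 (3.36 to 6.85) from a pileup of 31. The last, 16.2 kb past the start, had a pileup of 94 (76.0 to 115) and a fold enrichment of 14.8 (12 to 18.1), so the 2 strong peaks flanked a weak one. None of the 3 held any of the searched cores. Its 2 deposited peaks under the minimum stood 121 and 892 bp from the start site.

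Bcl6 (ENSMUSG00000022508.5, chr16:23965138-23988938, minus strand) encodes the repressor that opposes Blimp1. Its 4 peaks sat within 6.2 kb of each other around the start site, with gaps of 1.31 to 2.72 kb. The strongest, at chr16:23988417-23989477, covered the untranslated first exon 227 bp past the start, was 1061 bp wide and had a pileup of 146 (123 to 172) over a control level of 5.42, a fold enrichment of 22.9 (19.4 to 26.9). The next, 2.49 kb upstream at chr16:23991225-23991697, had a pileup of 71 and a fold enrichment of 11.2 (8.80 to 14.1) and was the only one with ATCAAAG, 89 bp from the summit. The 2 peaks in intron 1 were at fold enrichments of 7.27 (5.43 to 9.54) and 6.08 (4.35 to 8.28). In contrast to Prdm1, the peak at the start site of Bcl6 was the strongest of its gene. A lower strongest peak was found in 90.6% of coding gene windows, with windows without a high-confidence peak counted as lower. Among the 14869 windows with such a peak, Bcl6 ranked 2086.

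Bach2 (ENSMUSG00000040270.9, chr4:32325779-32673083, plus strand) encodes a repressor that holds T cells in a naïve and memory state. It had 23 high-confidence peaks, more than the 7 other genes together, with 19 of them in its body of 347 kb. Its density of 5.14 per 100 kb (3.26 to 7.72) was above that of 92.9% of coding gene windows. As many peaks or more were held by 7 windows in all, its own among them. The 528 coding gene bodies of at least 300 kb had a median of 0 peaks and an upper quartile of 2. Among them 4, Bach2 included, held as many as Bach2 or more.

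The Bach2 peaks were spread unevenly. From 90 to 160 kb past the start 11 peaks stood in intron 2, with fold enrichments from 4.21 to 24 and 3 with ATCAAAG. The upstream flank and the first 25 kb together held 4, the nearest 170 bp upstream of the start, the stretch from 25 to 90 kb held 3, and the rest of the gene with its downstream flank held 5. Of the 23 peaks 18 had a neighbor within 10 kb, with a median gap of 7.35 kb and a largest of 137 kb, between the intron 3 peak at 185 kb and the intron 4 peak at 322 kb.

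The strongest Bach2 peak, at chr4:32378240-32378951 in intron 1, 52.8 kb past the start, had a pileup of 203 (176 to 233) over a control level of 6.02, and its fold enrichment was 29.1 (25.2 to 33.3). Its summit window, shown above, held none of the cores searched. Close behind came a peak at chr4:32430238-32431537 in intron 2, 105 kb past the start, with a pileup of 153 (130 to 179) and a fold enrichment of 24 (20.4 to 28.1), and another, 97.1 kb past the start, at 21.2 (17.8 to 25.1). The 105-kb window had TTCAAAG 24 bp from its summit and ATCAAAG 94 bp from it. The intervals of neighbors in this order overlapped, unlike those of the first and second Prdm1 peaks. The start site peak, 1961 bp wide, was at 8.69 (6.67 to 11.1), while 9 other Bach2 peaks reached 10 or more.

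At Bach2, 10 of the 23 peaks had another gene's coding start nearer than its own. For most of these, the strongest Bach2 peak among them, it was the start of D130062J21Rik, which lies inside the Bach2 gene record. The others lay nearest to the start of Gja10 or Casp8ap2. Among them a peak of pileup 97 and fold enrichment 15.3 (12.4 to 18.6) stood at the start of Casp8ap2, 29.1 kb past the end of Bach2. For all 8 genes 15 of 44 peaks had another nearest coding start, 10 at Bach2, 3 at Zeb2 and 2 at Tbx21. The outermost member peak lay 29.7 kb from a gene body, at Bhlhe40, with a fold enrichment of 4.21. The first peak beyond the limit lay 56.3 kb from Zeb2, with a fold enrichment of 7.90, and stood 77 bp from the start of Gtdc1.

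**Figure D3:**
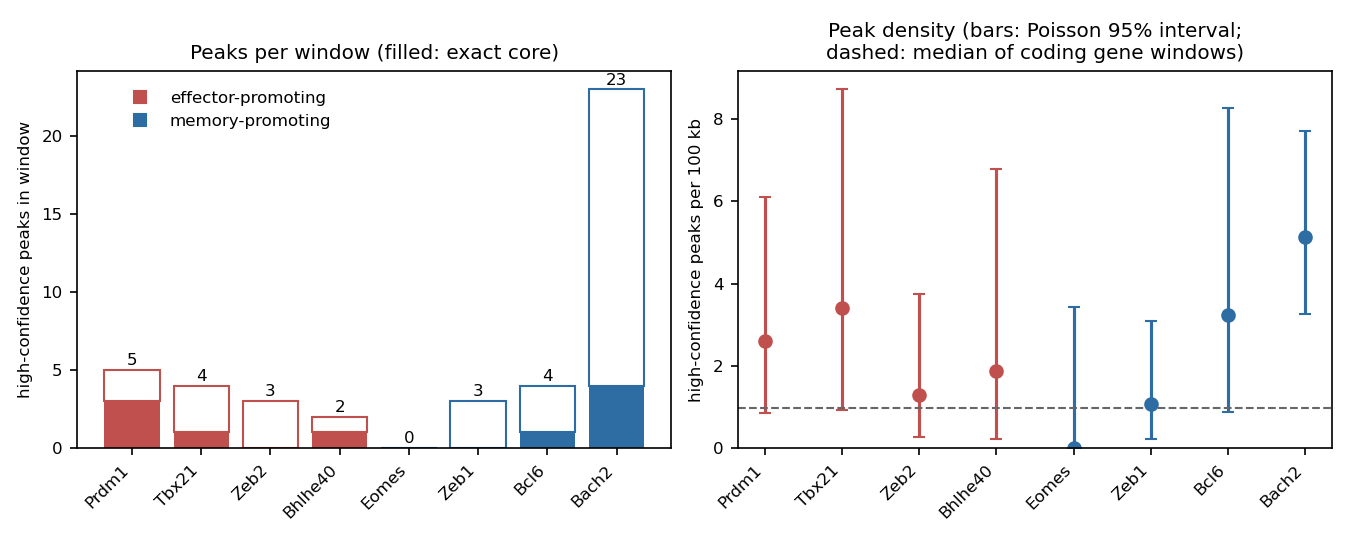
Left, number of high-confidence peaks in each window, with the filled part for those with the core ATCAAAG. Right, peaks per 100 kb of window with Poisson 95% intervals for counting error, and a dashed line at the median of coding gene windows, 0.973. Bach2 has 23 peaks and a density of 5.14, and Eomes has 0.

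The memory-promoting genes held 30 peaks in 963 kb and the effector-promoting genes 14 in 649 kb. Their densities were 3.12 (2.1 to 4.45) and 2.16 (1.18 to 3.62) per 100 kb, a ratio of 1.44 with a counting interval of 0.742 to 2.95 that includes 1. Without Bach2 the ratio turned, since the other 3 memory-promoting genes held 7 peaks in 515 kb, 1.36 per 100 kb (0.546 to 2.8), and the ratio was then 0.629. With the 50 kb counted from the coding reference transcript instead of the gene record it was 1.28. The difference in density between the sides was therefore not larger than its error and rested on a single gene.

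The fold enrichments of the sides overlapped. The median fold enrichment was 8.94 over the 30 memory-side peaks and 7.25 over the 14 effector-side ones, with ranges of 4.21 to 29.1 and 4.21 to 41.5 that overlap almost wholly. A fold enrichment of 10 or more was reached by 13 memory-side peaks (43.3%) and 4 effector-side peaks (28.6%), 17 of 44 (38.6%) in all, beside 27.4% of all high-confidence peaks. Without Prdm1 the effector-side median was 5.61 over 9 peaks, and without Bach2 the memory-side median was 11.2 over 7. Of the 10 highest peaks of all genes by fold enrichment, 7 lay at Bach2. Over all 44 the median was 8.12 (interval from order statistics 6.08 to 11.2), beside 6.86 over all 19042.

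The wide peaks all lay on the memory side. Median widths were 554 bp on the memory side and 400 bp on the effector side, and the widest peaks were 2224 bp and 753 bp. All 8 peaks of 1000 bp or more lay at memory-promoting genes, 5 at Bach2, 2 at Bcl6 and 1 at Zeb1, and 0 of 14 effector-side peaks was so wide. This makes 18.2% of the 44 peaks, beside 7.25% of all high-confidence peaks. With 1 library per group and genes that are not replicates of a side, no test of this contrast was possible. At Prdm1 the strongest peak, of 753 bp, was also the widest.

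**Figure D4:**
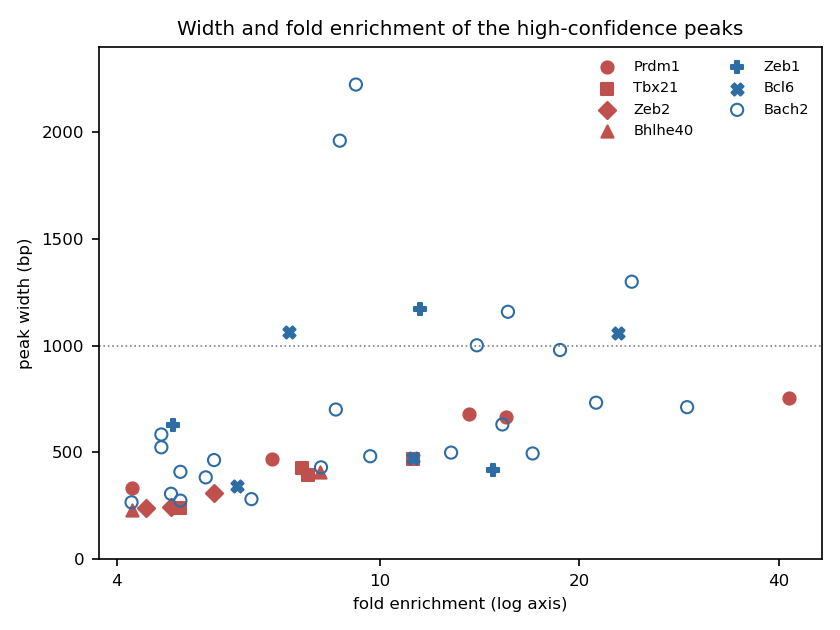
Width in bp of each of the 44 high-confidence peaks against its fold enrichment (log axis); red symbols are effector-promoting and blue ones memory-promoting genes. All 8 points at or above the dotted line of 1000 bp are blue, while the highest fold enrichment, 41.5, is a red Prdm1 peak 753 bp wide.

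The exact core ATCAAAG, searched on both strands and counted where all of its bases lay within 100 bp of the summit, stood in 10 of the 44 peaks (22.7%, Wilson 95% interval 12.8 to 37.0), beside 10.2% of all high-confidence peaks and 3.31% of the sequences beside them. Peaks with it were found at 5 of the 8 genes, 3 at Prdm1, 4 at Bach2 and 1 each at Tbx21, Bhlhe40 and Bcl6. Of coding gene windows, 15.6% had such a peak. That comparison is not matched for number of peaks, since these 5 genes held 2 to 23 each and coding gene windows a median of 1. On the effector side 5 of 14 peaks had it (35.7%, 16.3 to 61.2) and on the memory side 5 of 30 (16.7%, 7.34 to 33.6), with intervals that overlap. Of the 5 at effector-promoting genes, 3 belonged to Prdm1, and without Prdm1 the share was 2 of 9 (22.2%).

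The difference from all peaks was smaller for cores near the summit. With all bases within 50 bp the share was 4 of 44 (9.09%), beside 8.21% of all peaks, and the Bhlhe40 core, with its middle 49 bp away, did not lie wholly inside. The same letters read backwards, GAAACTA, stood in 4 of 44 peaks (9.09%), against 2.4% of all high-confidence peaks, so that this control word also stood above its background at these genes. Peaks with ATCAAAG were not stronger, with a median fold enrichment of 7.48 over 10 peaks against 8.36 over the 34 without. Any of the cores ATCAAAG or TTCAAAG or AACAAAG stood in 14 peaks (31.8%), beside 25.4% of all peaks, 8 on the effector side and 6 on the memory side.

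The Runx core TGTGGTT stood in 5 peaks (11.4%), beside 15.5% of all high-confidence peaks. Of the effector-side peaks 4 of 14 held it (28.6%) and of the memory-side peaks 1 of 30 (3.33%), with no test. The ETS core CGGAAGT stood in 3 (6.82%), beside 6.93%. Runx and ETS factors are partners of Tcf1 at many T cell sites, and neither share over the 44 peaks lay above that of all peaks. In promoters, within 1 kb of an annotated start, lay 10 of the 44 peaks (22.7%, 12.8 to 37.0), beside 39.6% of all high-confidence peaks, while 27 lay in gene bodies and 7 between genes. Promoter peaks were 4 of 14 on the effector side and 6 of 30 on the memory side. These counts include starts of noncoding transcripts and of neighboring genes, such as Gm11573 near Tbx21 and Casp8ap2 near Bach2. With starts of protein-coding transcripts only, the share of the 44 peaks was 15.9%, which was not set against all peaks.

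Most peaks stood on a control level at its lowest value in the list, 5.42, which the caller uses where the control library has few fragments. It was above that value in 10 of the 44 peaks (22.7%), beside 13.7% of all high-confidence peaks. These were 3 at Prdm1, 1 at Zeb2, 1 at Zeb1, 1 at Bcl6 and 4 at Bach2. The 3 Prdm1 peaks had the 3 highest levels, 12, 8.69 and 8.02, and they were also its 3 strongest. Residual signal at a bound site in cells without Tcf1 and local background cannot be told apart in this list. A fold enrichment of 4 at the lowest control level takes a pileup of 25 (16.2 to 36.9), and 8 of the 44 peaks lay within 1 Poisson SD of the minimum.

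**Figure D5:**
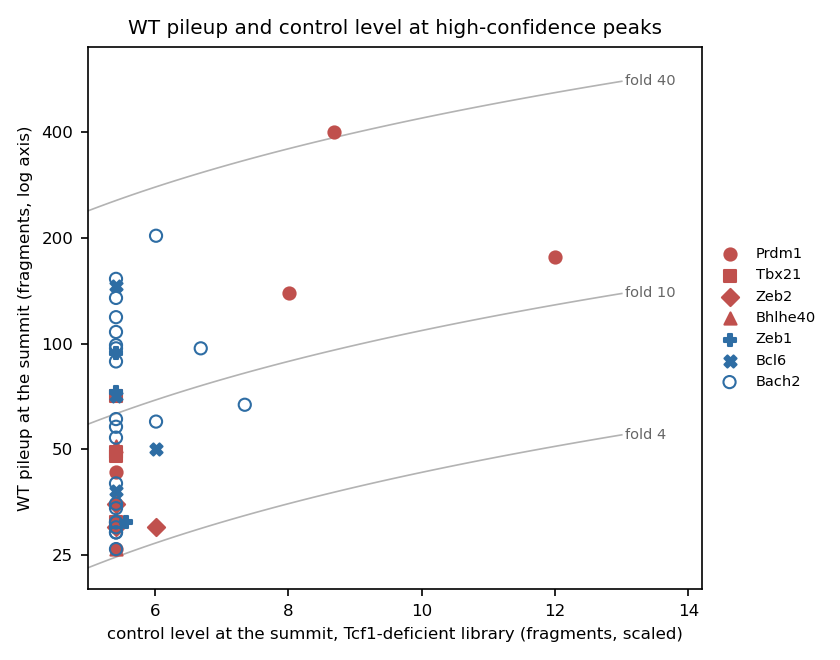
WT pileup at the summit in fragments (log axis) against the control level of the Tcf1-deficient library on the caller's scale, for the 44 high-confidence peaks, with lines of equal fold enrichment. Most points stand at the lowest control level of 5.42, and the 3 Prdm1 points at 8.02, 8.69 and 12 stand farthest to the right.

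Other regulators of the same choice, taken from general knowledge and examined under the same rule, also had peaks. On the effector side Id2, Runx3, Irf4, Batf, Stat4 and Hif1a all had at least 1, with 36 peaks in total, 1 to 15 per gene, and 4.16 per 100 kb. On the memory side Id3, Lef1, Foxo1, Klf2, Myb and Stat3 had 55, with 2 to 19 per gene and 6.17 per 100 kb. The corresponding groups of 4 genes examined here had 2.16 and 3.12, a difference that was not tested. The core stood in 4 of the 36 (11.1%) and in 5 of the 55 (9.09%), near the share of all peaks.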

How the data were processed

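Tcf1 ChIP-seq was processed by the authors for 1 WT and 1 Tcf1-deficient library. Per the labels, reads were aligned to mm9 with Bowtie2 2.2.5, and per the file headers peaks were called with MACS2 2.1.1 in paired-end mode at p under 1e-05, with 1 fragment kept per position, with WT fragments set against those of the Tcf1-deficient library. The deposited signal is the pileup, the coverage of the summit by WT fragments in whole numbers. The deposited fold enrichment is the ratio of pileup plus 1 to local control level plus 1. The deposited −log10 p-values and q-values compare these 2 libraries and not genotypes. The header says that q was not calculated, but the q column holds positive values. It also says that the larger library is scaled toward the smaller, while the WT pileups are unscaled whole numbers, so the scale of the control level rests on the caller.

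The control level was computed here as (pileup + 1) / fold − 1. Members and gene lists were chosen with earlier results of these data known. Windows were the GENCODE vM1 gene records with 50 kb on each side, and a peak was placed by its summit. High confidence followed the study's limits. All 8 genes were named, and another gene only where a described peak lay in its body or nearest its start, apart from the lists of 6 other fate regulators on each side, which were taken from general knowledge. Sequences and motifs were read from the reference genome NCBIM37, the same build as mm9. Intervals at 95% confidence were exact Poisson for pileups and densities and Wilson for shares. The intervals of fold enrichments hold the control level fixed. The code was tested on simulated data. Alternatives were the fold minimum, the q limit, the window, the core and promoter definitions and each gene left out. Python 3.11.15, pandas 2.3.3, numpy 2.4.6 and SciPy 1.17.1 were used. How repeated alignments were filtered is not given in the sources used here.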

Additional observations from a re-analysis of the deposited data

Results flagged for a closer look

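In the windows 5 deposited peaks fell under the fold minimum of 4 and were not among the 44 high-confidence peaks. Their control level was 5.42, and a WT pileup above it follows from the peak call itself. The Prdm1 peak, 1.06 kb from the start of the longer noncoding transcript, had a fold enrichment of 3.43 from a pileup of 21 (Poisson 95% interval 13 to 32.1). At Zeb1, a peak 121 bp from the start site was at 3.74 from a pileup of 23, and another 892 bp past it was at 3.90 from a pileup of 24. At Bach2, a peak 9.12 kb past the start was at 3.58 from a pileup of 22, and one 25.3 kb past it was at 3.12 from a pileup of 19. All 5 intervals of the fold enrichment include 4, for example 1.94 to 4.78 for the last.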

How the results depend on the processing

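With a fold minimum of 8 in place of 4, the 8 windows held 23 peaks with a median fold enrichment of 14. Counting only peaks whose nearest coding start was the gene's own left 29. This setting dropped Bach2 intron peaks that lay nearest to D130062J21Rik, which starts inside Bach2. The density ratio of memory-promoting to effector-promoting genes fell to 0.629 without Bach2 and was 1.18 to 2.43 under the other alternatives. The core share was 9.09% for cores wholly within 50 bp of the summit and 9.09% for the core read backwards. With flanks of 10 kb the strongest Tbx21 peak was at 7.79. With 100 kb the strongest peak in the Zeb2 window was at 7.90, at the start of Gtdc1, and the strongest in the Eomes window at 20.3. With no flank Tbx21, Zeb2 and Eomes held no peak, and with the gene body and 50 kb upstream Zeb2 lost all 3 of its peaks. The 5 results over all 8 genes stayed, under every other setting, a q limit of 1e-10 among them, within counting error or within 1.5 times the count. The setting with the reference transcript was added after seeing the data. No library could be left out, since each group had 1. No paired analysis was possible because each group had 1 library and the results come from no test.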
